A study of Mus musculus with 4 samples.

Results

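A set of 10 genes of brain blood vessels is described here across 4 mouse brain RNA libraries. They are Cldn5, Slc2a1, Mfsd2a, Abcb1a and Slco1a4, which serve the blood-brain barrier, and Pecam1, Cdh5, Tek, Flt1 and Kdr, which endothelial cells of most organs make. They were taken by name, and all 10 were found among the 54532 Ensembl genes of each library by their GENCODE M21 symbols. The study crossed a brain tumor with age, and sequenced poly-A RNA of 1 library per group.

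The young naive and old naive libraries came from C57BL/6 mice without a tumor, and the young tumor-bearing and old tumor-bearing libraries from C57BL/6 mice that had received 50000 GL261 cells inside the skull. GL261 is a mouse glioma line of the same strain. Tissue outside the tumor was taken on day 21. The labels name no engineered allele, and the treatment tag of all 4 libraries was none. The design text gives 8 to 12 weeks as the young age and 8 to 90 weeks as the old one, 2 ranges that start alike. The GL261 tag stands on the naive libraries too, and the group tag was followed. How many mice each library holds is not given in the sources used here.

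Brain capillaries differ from those of most organs because their endothelial cells are sealed by tight junctions, take up few vesicles and carry many transporters. Claudin 5 seals the junctions, GLUT1 brings in glucose, efflux pumps send drugs back to the blood, and Wnt ligands from neural cells keep this state. VEGF and angiopoietin receptors on the same cells govern sprouting and stability, and glioma vessels are known for leaking.

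The libraries held 19572251 to 23267926 fragments in genes, so the counting error of the 10 genes was small, with 168 to 6500 reads per gene and library. The divisor for depth that the authors used was 0.797 to 0.914 of these fragments in 3 libraries and 1.19 in the old tumor-bearing one, so every old tumor-bearing level depends on that scaling. That library stood apart. Its 4 cycling markers summed to 99.8 FPKM against 0.327 to 4.91 FPKM in the others, its 7 leukocyte markers to 295 FPKM against 40.2 to 62.8 FPKM, and its 4 neuron markers to 97.2 FPKM against 483 to 686 FPKM. The young tumor-bearing library stood apart in its 4 epithelial markers, which summed to 30.6 FPKM against 1.01 to 3.73 FPKM. The old naive library stood apart in its 5 choroid plexus markers, which summed to 6.22 FPKM against 393 to 454 FPKM. FPKM is the number of fragments per kilobase of exon, scaled to that divisor. There is 1 library per group, so no difference was tested between conditions. All intervals describe counting error alone: there were no molecular identifiers, so reads can be copies of 1 molecule, and the spread between mice is unknown.

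Promoters are shown for the gene that was highest in the old tumor-bearing library (Slc2a1), the gene with the widest spread (Slco1a4) and a receptor pair that parted (Flt1 and Kdr). RefSeq windows of 250 bases before the gene start (GRCm38.p6, the same assembly as mm10) matched 8 of the 10 genes. Not matched were Pecam1 and Cdh5. The Abcb1a window ends 92986 bases before the GENCODE start of the gene, so it is not shown. The Slc2a1 and Kdr windows reach 34 and 3 bases into the GENCODE gene, and that of Slco1a4 ends 21 bases short of it. Distances below are from the RefSeq start. In the 4 windows printed below in gene direction, capitals mark the ETS core (GGAA, read as TTCC on the other strand) and the hypoxia response motifs (ACGTG and GCGTG, read as CACGT and CACGC). ETS factors such as ERG bind endothelial genes, and hypoxia-inducible factors bind the second motif. The windows and the motifs shown in capitals were chosen after the values and matches were seen. In Kdr the first hypoxia match and an ETS core adjoin, and no ETS match overlapped a hypoxia match in these windows.
Slc2a1 (chr4:119108495-119108744, plus strand): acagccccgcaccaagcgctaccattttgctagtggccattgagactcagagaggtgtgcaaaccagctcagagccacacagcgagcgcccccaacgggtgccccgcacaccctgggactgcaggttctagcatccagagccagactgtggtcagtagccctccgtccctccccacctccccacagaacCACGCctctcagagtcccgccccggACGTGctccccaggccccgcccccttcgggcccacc
Flt1 (chr5:147726012-147726261, minus strand): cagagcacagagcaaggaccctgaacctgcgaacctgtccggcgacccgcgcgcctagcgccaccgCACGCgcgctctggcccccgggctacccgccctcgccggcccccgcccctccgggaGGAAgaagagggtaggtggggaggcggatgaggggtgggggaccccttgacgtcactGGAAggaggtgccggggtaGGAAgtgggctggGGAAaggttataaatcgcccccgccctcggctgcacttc
Kdr (chr5:75978456-75978705, minus strand): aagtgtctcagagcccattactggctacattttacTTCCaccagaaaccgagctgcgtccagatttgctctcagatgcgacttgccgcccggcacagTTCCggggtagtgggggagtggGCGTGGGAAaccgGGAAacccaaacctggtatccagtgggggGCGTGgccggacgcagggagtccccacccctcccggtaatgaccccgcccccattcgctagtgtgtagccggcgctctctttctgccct
Slco1a4 (chr6:141856221-141856470, minus strand): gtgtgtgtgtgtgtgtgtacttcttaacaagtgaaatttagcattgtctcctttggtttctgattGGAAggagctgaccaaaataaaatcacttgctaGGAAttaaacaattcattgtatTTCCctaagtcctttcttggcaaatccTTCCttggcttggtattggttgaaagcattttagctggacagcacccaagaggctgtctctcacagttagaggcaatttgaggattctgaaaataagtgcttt

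Slc2a1 held 0 ETS cores and 2 hypoxia motifs, at 36 and 61 bases before the start. Flt1 held 4 ETS cores and 1 hypoxia motif, and Kdr held 4 and 2. Slco1a4 held 4 ETS cores, 0 hypoxia motifs and 0 CpG pairs, where the other 3 windows held 13, 23 and 16 CpG pairs for Slc2a1, Flt1 and Kdr. These matches are common: of 27018 promoters of the same length, 93.4% held at least 1 ETS core and 38.6% at least 1 hypoxia motif. Both strands were also searched for the TCF and LEF letters CTTTGA and CTTTGT, which 27.7% of promoters held, and for the SOX letters ACAATG and ATTGTT, which 16.7% held. Slco1a4 held 3 SOX matches, as many as or more than which occurred in 0.925% of promoters, and Mfsd2a held 4 hypoxia matches, reached in 2.66%. A match is only a run of letters and does not show that a factor binds there.

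Among the barrier genes, Slc2a1 was far higher in the old tumor-bearing library while the carriers Slco1a4 and Abcb1a were lowest there. Cldn5 (chr16:18776847-18778262, mm10), the main seal of brain endothelial tight junctions, stood at 35.7 FPKM in young naive, 26.1 in young tumor-bearing, 39.0 in old naive and 23.2 in old tumor-bearing tissue. Both tumor-bearing libraries were thus below both naive ones. Slc2a1 (chr4:119108711-119137983), the GLUT1 glucose carrier of endothelium that glia and dividing cells also make, stood at 35, 42.5, 29.3 and 79.7 FPKM in the same order. The old tumor-bearing library was the high one, and the other 3 lay close together. Mfsd2a (chr4:122946850-122961188), a lipid carrier that also restrains vesicle traffic across the endothelium, stood at 9.63, 10.7, 8.18 and 5.60 FPKM.

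Slco1a4 (chr6:141805440-141856199), an organic anion carrier, stood at 9.75 FPKM in young naive, 10.1 in young tumor-bearing, 8.37 in old naive and 2.82 in old tumor-bearing tissue. Its spread from highest to lowest library, 3.57-fold, was the widest of the 10 genes. Abcb1a (chr5:8660077-8748575), the P-glycoprotein pump of mouse brain capillaries, stood at 6.68, 8.52, 8.20 and 3.17 FPKM in that order. As for Slco1a4, the old tumor-bearing library was the low one, and the young tumor-bearing library had the highest value. As deposited, Cldn5 and Mfsd2a were lowest in the old tumor-bearing library too. That depended on scaling. Under equal fragments in genes, a scaling used below, Cldn5 was 1.15-fold higher there than in young tumor-bearing tissue. Mfsd2a was then 1.02-fold higher there than in old naive tissue.

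The pan-endothelial genes that hold cells together varied least, and the receptors varied more. Pecam1 (chr11:106654217-106750628), an adhesion protein of endothelium that leukocytes and platelets also carry, stood at 4.70, 4.32, 4.39 and 3.60 FPKM in young naive and tumor-bearing, then old naive and tumor-bearing tissue. Cdh5 (chr8:104101625-104144511), the VE-cadherin of endothelial adherens junctions, stood at 4.97, 5.17, 4.90 and 4.29 FPKM. Their highest library exceeded their lowest by 1.31-fold and 1.21-fold. Leukocyte markers, which Pecam1 shares cells with, summed to 295 FPKM in the old tumor-bearing library, of which Lyz2 gave 244 FPKM. Pecam1 was at its lowest there on the deposited scale only. Under the 3 other scalings used below it was 1.07-fold to 1.22-fold higher there than in old naive tissue. The part of leukocytes in its level was not tested.

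Tek (chr4:94739289-94874976), the TIE2 receptor for angiopoietins, stood at 4.57 FPKM in young naive, 3.82 in young tumor-bearing, 3.39 in old naive and 1.53 in old tumor-bearing tissue. Flt1 (chr5:147561604-147726011), the VEGF receptor that binds VEGF tightly and signals weakly, stood at 5.99, 7.23, 8.61 and 3.25 FPKM. Kdr (chr5:75932827-75978458), the main signalling receptor for VEGF, stood at 1.94, 1.95, 2.77 and 2.38 FPKM. Tek and Flt1 were lowest in the old tumor-bearing library, whereas Kdr was higher in both old libraries than in both young ones. In bulk tissue, fewer endothelial cells and less RNA per endothelial cell cannot be told apart.

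**Figure D1:**
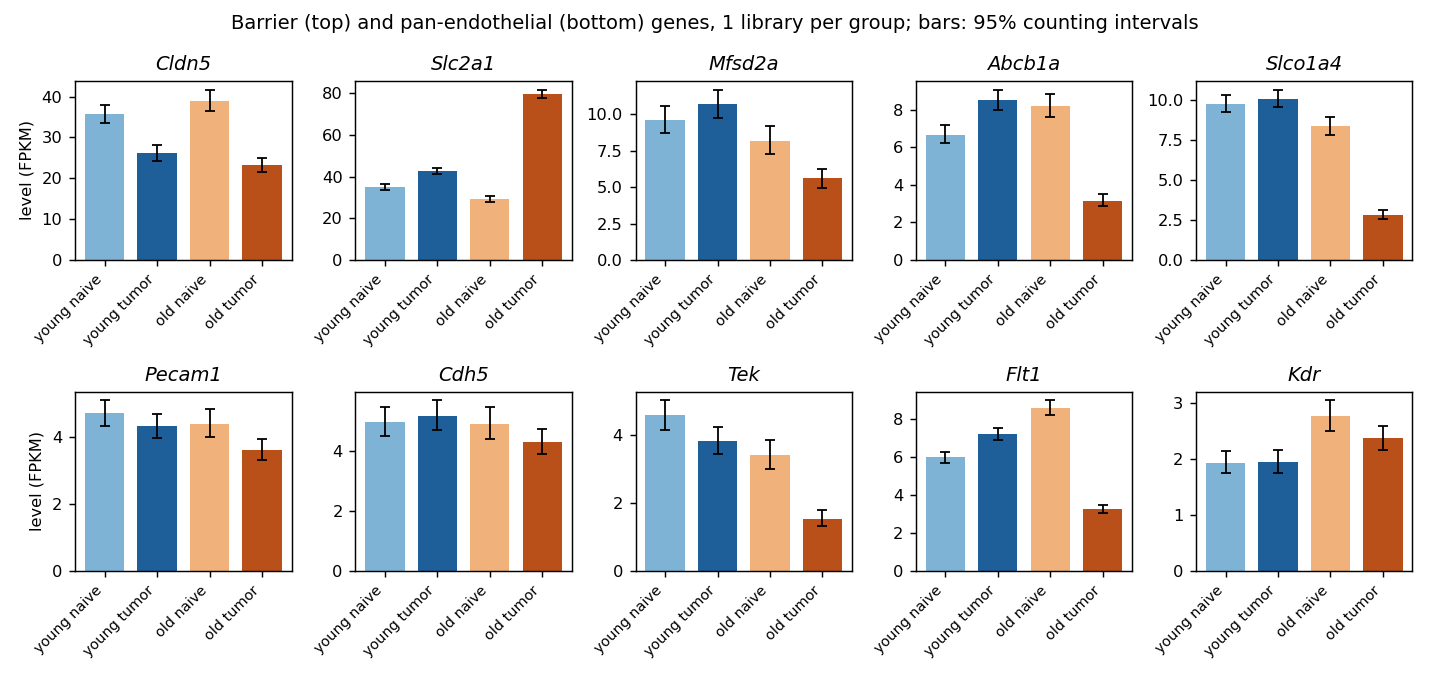
Level of each gene in FPKM (vertical axis, starting at 0) in the 4 libraries, with the 5 barrier genes in the upper row and the 5 pan-endothelial genes in the lower row; bars on the columns are exact Poisson 95% counting intervals. Slc2a1 stands at 79.7 FPKM in the old tumor-bearing library against 29.3 to 42.5 FPKM in the others, while Slco1a4, Abcb1a, Tek and Flt1 are lowest there.

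FPKM is per length of all annotated exons, so levels can be ranked between genes as far as that length matches the transcripts made. The counting intervals do not cover a mismatch. The same limit applies wherever levels of different genes are compared below. In young naive tissue Cldn5 and Slc2a1 led, with overlapping intervals, followed by Slco1a4 and Mfsd2a, which overlapped too. Abcb1a and Flt1 came next with overlapping intervals, then Cdh5, Pecam1 and Tek, each of which overlapped its neighbour, and Kdr last. In old naive tissue Flt1, Slco1a4, Abcb1a and Mfsd2a could not be ordered beyond counting error, at 8.61 to 8.18 FPKM. In old tumor-bearing tissue Slc2a1, Cldn5 and Mfsd2a led in an order beyond counting error. Below them Cdh5, Pecam1, Flt1, Abcb1a, Slco1a4 and Kdr, from 4.29 to 2.38 FPKM, each overlapped the next, and Tek was last. Kdr was last in both young libraries, and the intervals of Tek and Kdr overlapped in the old naive one.

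The young comparison asks what a tumor changes around it in young brain. None of the 10 genes was at least 2-fold apart. Of 15500 genes in all, 5.05% stood higher by that much and 1.85% lower with the tumor, so 0 of 10 is near the background shares. A gene was counted when FPKM + 0.1 differed at least 2-fold and FPKM reached 1 in at least 1 of the 2 libraries; all 10 passed that floor in every comparison. The median log2 ratio of FPKM + 0.1 was 0.05 for the 10 genes and -0.01 for all genes. Cldn5 was 1.37-fold lower (95% interval 1.24 to 1.5), and 6.66% of all genes had a lower log2 ratio. Abcb1a was 1.27-fold higher (1.16 to 1.41), Slc2a1 1.22-fold higher (1.15 to 1.28) and Flt1 1.21-fold higher (1.13 to 1.29), while Tek was 1.20-fold lower (1.04 to 1.38). The intervals of Mfsd2a, Slco1a4, Pecam1, Cdh5 and Kdr included 1. The fold differences of Cldn5, Slc2a1, Abcb1a, Flt1 and Tek kept their direction under all 4 scalings tried. Beside them, 3 of 4 epithelial markers and 2 of 5 fibroblast markers were at least 2-fold higher in young tumor-bearing tissue. So were 1 of 4 measured leukocyte markers, both measured cycling markers and 1 of 10 pericyte markers, Higd1b (2.09-fold, 1.27 to 3.51). Krt8 was 61.5-fold, Top2a 11.4-fold, Col3a1 4.90-fold and Lyz2 4.37-fold higher, and their part was not tested.

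The old comparison asks the same in old brain. Here Slc2a1 was higher and 4 genes were lower by 2-fold or more. The 4 were Slco1a4, Flt1, Abcb1a and Tek. Genes at large moved as much: of 16488, 20.6% stood higher by 2-fold or more and 31.4% lower, so 1 and 4 of 10 are near the background shares. Slc2a1 was 2.72-fold higher in old tumor-bearing than in old naive tissue (95% interval 2.58 to 2.88), and 84.7% of all genes had a lower log2 ratio. Slco1a4 was 2.97-fold lower (2.63 to 3.34), Flt1 2.65-fold lower (2.45 to 2.86), Abcb1a 2.59-fold lower (2.29 to 2.93) and Tek 2.21-fold lower (1.81 to 2.71). Cldn5 was 1.68-fold lower (1.52 to 1.86) and Mfsd2a 1.46-fold lower (1.24 to 1.72). Pecam1, Kdr and Cdh5 were 1.22-fold, 1.16-fold and 1.14-fold lower. The median log2 ratio was -0.64 for the 10 genes and -0.31 for all genes.

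The lower calls depend on how the libraries are scaled, and the Slc2a1 call does not. Under median-of-ratios scaling, equal fragments in genes and equal FPKM totals, the median of all genes shifted from -0.31 to 0.12, 0.33 and 0.18, and the number of the 10 genes at least 2-fold lower from 4 to 2, 0 and 1. The background then stood at 27.8%, 32.2% and 28.7% higher and 23.0%, 19.3% and 21.9% lower. Slc2a1 was 2.72-fold to 4.06-fold higher over the 4 scalings. Slco1a4 was 1.99-fold to 2.97-fold lower, Flt1 1.78-fold to 2.65-fold, Abcb1a 1.74-fold to 2.59-fold, Tek 1.48-fold to 2.21-fold and Cldn5 1.13-fold to 1.68-fold lower. The direction of Pecam1, Cdh5 and Kdr turned to higher under all 3 other scalings, and that of Mfsd2a under equal fragments in genes.

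**Figure D2:**
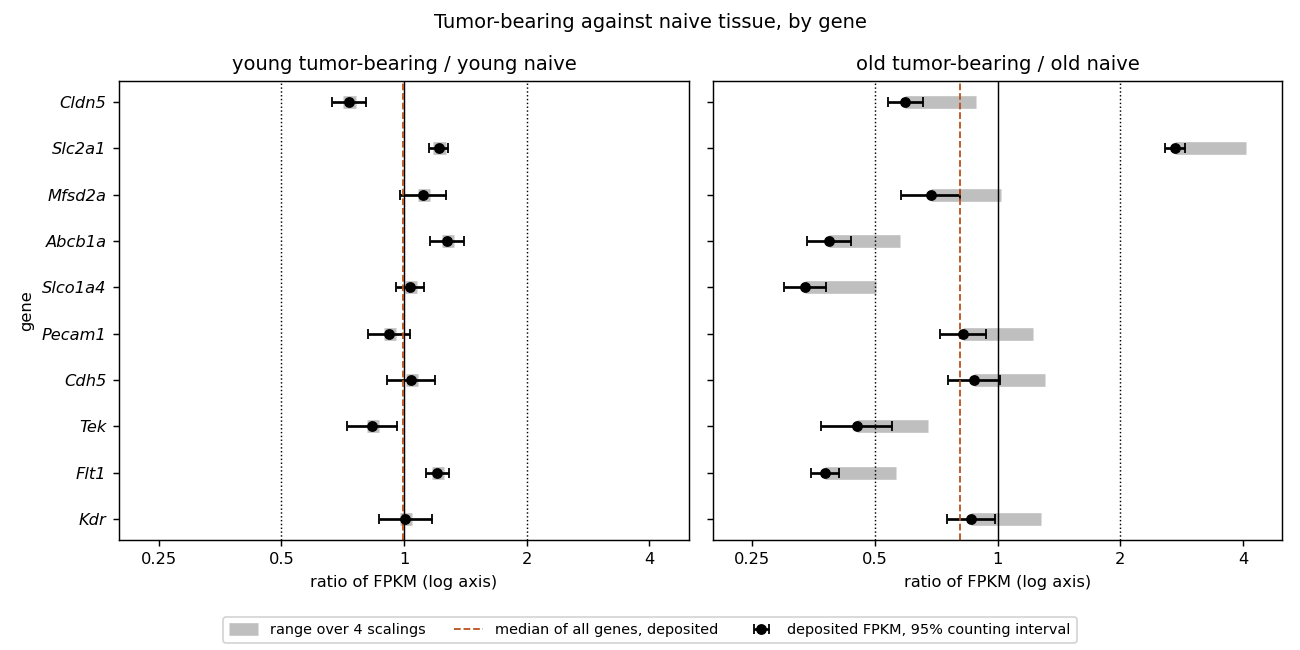
Ratio of FPKM in tumor-bearing over naive tissue for each of the 10 genes (horizontal log axis), young on the left and old on the right; points are the deposited scale with exact binomial 95% counting intervals, grey bars span the 4 scalings, the dashed line is the median of all genes and dotted lines mark 2-fold. In young tissue no gene reaches 2-fold, and in old tissue Slc2a1 lies at 2.72 or above while Slco1a4, Flt1, Abcb1a and Tek lie below 1 under every scaling.

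Other cells and tissue moved with these values. Between old naive and old tumor-bearing tissue the 10 pericyte markers summed to 95.8 and 36.0 FPKM. Of the 10, 6 were at least 2-fold lower and 0 higher, against 31.4% and 20.6% of all genes. Cspg4 and Anpep went the other way, 1.45-fold and 1.79-fold higher. Vtn and Rgs5 gave 46.1 and 22.7 FPKM of the old naive sum. The median log2 ratio of the pericyte markers was -1.39, or -1.39 to -0.83 over the scalings. The 4 astrocyte markers summed to 585 and 162 FPKM, with 2 of 4 at least 2-fold lower. The other astrocyte markers, Aqp4 and Gja1, were only 1.11-fold and 1.29-fold lower. The 5 red blood cell markers summed to 604 and 160 FPKM, with 5 of 5 at least 2-fold lower and a median log2 ratio of -1.89, or -1.89 to -1.33 over the scalings. All 4 cycling markers and 5 of 7 leukocyte markers were at least 2-fold higher, and all 4 neuron markers at least 2-fold lower. Most of the leukocyte sum was Lyz2, at 244 FPKM in old tumor-bearing tissue, and the leukocyte marker Coro1a was 1.84-fold lower. The part of all these markers in the levels of the 10 genes was not tested. None of the 10 pericyte or 4 astrocyte markers was at 0 in any library, while the T cell marker Cd3e was at 0 in the old naive one. Because the old naive library stood apart in choroid plexus markers, the old tumor-bearing library was also set against the young naive one, an alternative added after the values were seen. Slc2a1 was then still the only 1 of the 10 at least 2-fold higher, with a log2 ratio of 1.19. Of 16316 genes 20.7% were called higher and 30% lower in that comparison. At least 2-fold lower were 3 genes, Slco1a4 (-1.75), Tek (-1.51) and Abcb1a (-1.05), while Flt1 stood at -0.86 and Kdr at 0.28.

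Between the naive libraries, which differ in age by their labels, none of the 10 genes was 2-fold apart, against 6.71% of 15419 genes higher and 4.93% lower in old tissue. Flt1 was 1.44-fold higher (95% interval 1.34 to 1.54) and Kdr 1.43-fold higher (1.23 to 1.65) in old naive tissue, so both VEGF receptors stood higher by a like factor. Abcb1a was 1.23-fold higher (1.10 to 1.36). Tek was 1.35-fold lower (1.15 to 1.58), and Slc2a1, Mfsd2a and Slco1a4 were 1.19-fold, 1.18-fold and 1.17-fold lower with intervals that excluded 1. Cldn5, Pecam1 and Cdh5 had intervals that included 1. The libraries also differed in other tissue: choroid plexus markers summed to 409 FPKM in young and 6.22 FPKM in old naive tissue. The astrocyte markers were mixed. In old tissue Aqp4, Gja1 and Aldoc were 2.76-fold, 1.62-fold and 1.28-fold lower, while Slc1a2 was 1.26-fold higher. Age and these differences cannot be told apart here.

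Between the tumor-bearing libraries 0 of the 10 genes stood higher in old tissue by 2-fold or more and 4 stood lower, against 19% and 29.8% of 16562 genes. Slco1a4 was 3.57-fold lower (95% interval 3.20 to 4.0), Abcb1a 2.69-fold lower (2.39 to 3.03), Tek 2.49-fold lower (2.07 to 3.01) and Flt1 2.23-fold lower (2.06 to 2.40). Slco1a4 and Abcb1a remained at least 2-fold lower under all 4 scalings, and Tek and Flt1 under 2 of them. Slc2a1 was 1.87-fold higher (1.79 to 1.96), which the 3 other scalings raised past 2-fold, up to 2.46-fold. Equal fragments in genes put the background at 26.7% higher and 20.7% lower. This comparison shares its libraries with those above and is not separate evidence.

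Dividing each barrier gene by the pan-endothelial genes of its own library removes the scaling between libraries. The geometric mean of Pecam1, Cdh5, Tek, Flt1 and Kdr was 4.16 FPKM in young naive, 4.13 in young tumor-bearing, 4.45 in old naive and 2.83 in old tumor-bearing tissue. Relative to it, Slc2a1 stood at 8.41, 10.3, 6.58 and 28.1, and was 4.27-fold higher in old tumor-bearing than in old naive tissue (95% counting interval 3.93 to 4.64). Slco1a4 stood at 2.35, 2.44, 1.88 and 0.996, 1.89-fold lower (1.66 to 2.16), and Abcb1a at 1.61, 2.06, 1.84 and 1.12, 1.65-fold lower (1.44 to 1.89). In the old tumor-bearing library these carriers were thus about level with the pan-endothelial genes, and above them in the other 3.

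Cldn5 and Mfsd2a followed the pan-endothelial genes more closely in old tissue. Cldn5 stood at 8.59, 6.32, 8.78 and 8.19 times the pan-endothelial mean in young naive and tumor-bearing, then old naive and tumor-bearing tissue. In old tissue the ratio was 1.07-fold lower with the tumor (95% interval 0.955 to 1.20), and in young tissue 1.36-fold lower (1.22 to 1.52). For Mfsd2a the ratios were 2.32, 2.59, 1.84 and 1.98, 1.07-fold higher in old tissue (0.902 to 1.28). With Cdh5 alone as the reference the old log2 ratios became -0.56 for Cldn5 and -0.36 for Mfsd2a, against -0.10 and 0.10 with the mean, so this closeness depends on the reference. The direction of Slc2a1, Slco1a4 and Abcb1a held with each of the 3 other references.

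**Figure D3:**
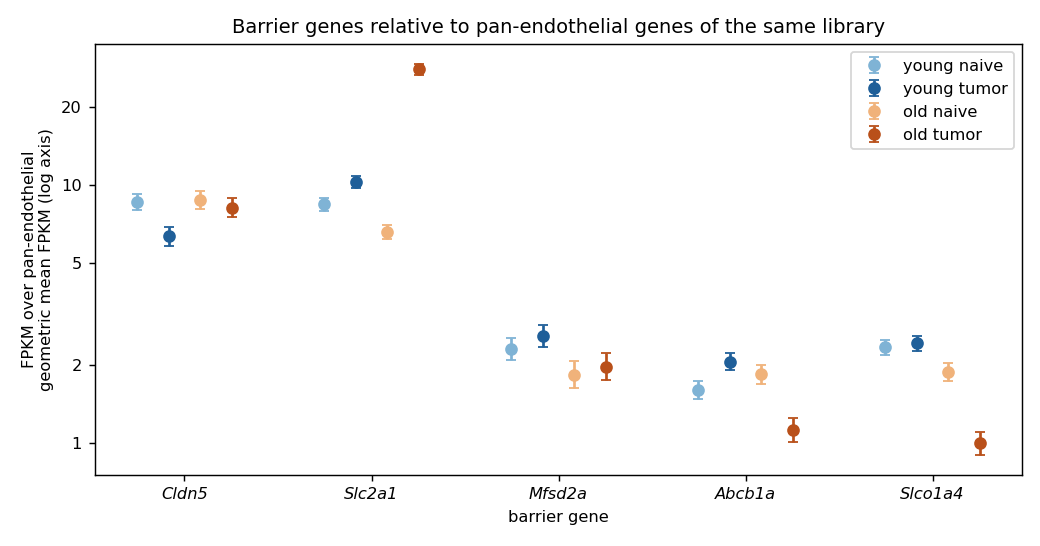
Level of the 5 barrier genes divided by the geometric mean of the 5 pan-endothelial genes in the same library (vertical log axis), with colours for the 4 libraries and bars for 95% counting intervals. Slc2a1 reaches 28.1 in the old tumor-bearing library against 6.58 to 10.3 elsewhere, and Abcb1a and Slco1a4 lie near 1 there.

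Ratios within families, which no scaling alters, showed which relative the tissue held more of. These pairs were chosen after the values were seen. Abcb1b is the second mouse gene for P-glycoprotein. It stood at 0.435, 0.826, 0.808 and 3.94 FPKM in young naive and tumor-bearing, then old naive and tumor-bearing tissue, the reverse of Abcb1a in old tissue. The ratio of Abcb1b to Abcb1a was 0.0650, 0.0969, 0.0985 and 1.24, a 12.6-fold difference between the old libraries (95% counting interval 9.91 to 16.1). Their summed level, 7.12, 9.35, 9.01 and 7.11 FPKM, varied far less than either. The copies are close in sequence, so reads can be assigned to the wrong one, and both values are uncertain to that extent.

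The VEGF receptors parted as well. The ratio of Flt1 to Kdr was 3.09 in young naive, 3.70 in young tumor-bearing, 3.11 in old naive and 1.37 in old tumor-bearing tissue, 2.28-fold lower between the old libraries (95% counting interval 1.95 to 2.65). Of their ligands, Pgf parted from Vegfa and Vegfb did not. Vegfa, the main VEGF, stood at 19.7, 26.1, 27.4 and 11.8 FPKM, and Pgf, a ligand of Flt1 alone of these receptors, at 1.13, 0.999, 0.837 and 2.95 FPKM. The ratio of Pgf to Vegfa was 0.0574, 0.0383, 0.0306 and 0.251, 8.20-fold higher between the old libraries (5.75 to 11.7). Vegfb, which also binds Flt1 and not Kdr and was the most abundant of the 3, stood at 39.8, 42.8, 53.7 and 24.0 FPKM. Its ratio to Vegfa was 1.96 and 2.04 in the old libraries, 1.04-fold apart (0.929 to 1.16).

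Tek was also lower relative to Tie1, a receptor of the same family without a firmly binding ligand of its own. Their ratio was 1.15, 0.963, 0.896 and 0.501 in young naive and tumor-bearing, then old naive and tumor-bearing tissue, 1.79-fold lower between the old libraries (95% counting interval 1.39 to 2.30). Of the ligands of Tek, the stabilising Angpt1 stood at 1.53, 1.60, 0.688 and 1.13 FPKM and the destabilising Angpt2 at 0.424, 0.827, 0.485 and 3.17 FPKM. Angpt2 exceeded Angpt1 in the old tumor-bearing library and in no other. In the old naive library their order was within counting error, with a 95% counting interval of the ratio of 0.431 to 1.13. The ratio of Angpt2 to Angpt1 was 0.277, 0.515, 0.705 and 2.80, 3.97-fold higher between the old libraries (2.41 to 6.53).

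**Figure D4:**
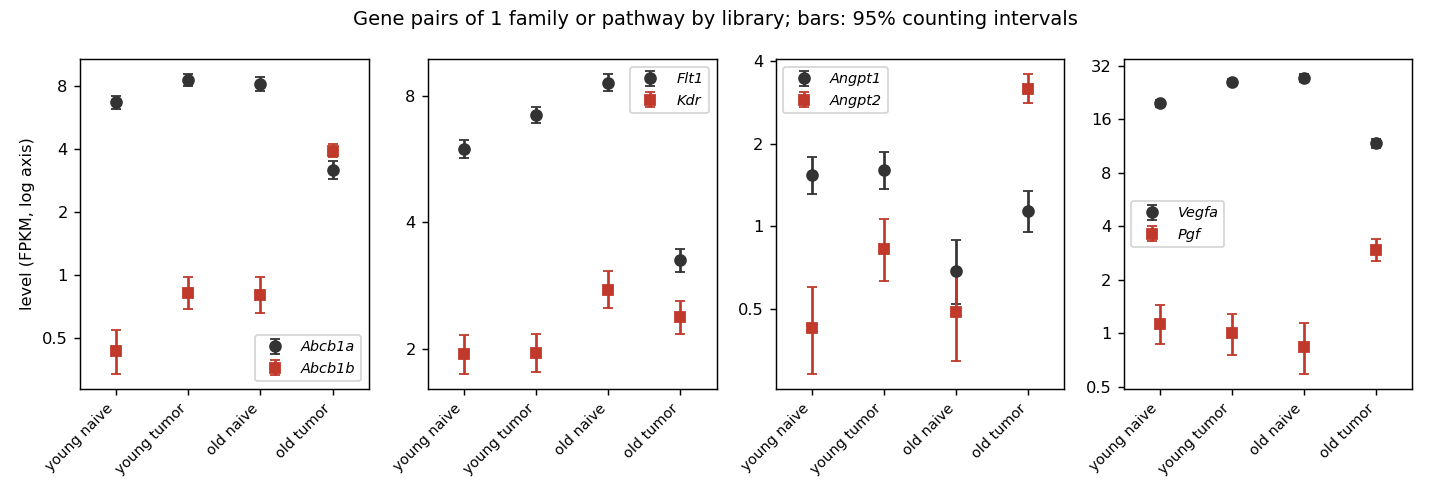
Levels in FPKM (vertical log axis) of 4 pairs of related genes in the 4 libraries, with 95% counting intervals. In the old tumor-bearing library Abcb1b lies above Abcb1a and Angpt2 above Angpt1, and Flt1 and Kdr, at 3.25 and 2.38 FPKM, lie closer together than in the other 3 libraries.

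The tumor differences of the 2 ages can be set side by side for each gene, as the old log2 ratio minus the young one. The differences were 1.16 for Slc2a1, -1.69 for Abcb1a, -1.65 for Flt1, -1.58 for Slco1a4, -0.84 for Tek, -0.69 for Mfsd2a and -0.30 for Cldn5. Abcb1a and Flt1 were higher with the tumor in young tissue and lower in old tissue, beyond counting error and under all 4 scalings. The counting intervals of Pecam1, Cdh5 and Kdr included 0. The median was -0.49 over the 10 genes and -0.32 over 17441 genes. The differences of Cldn5, Pecam1, Cdh5 and Kdr changed sign under other scalings. With 1 library per group these differences were not tested.

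The 12 lists of the design held 126 other genes of the barrier and of vessel signalling. In young tissue, where 5.05% of all genes stood at least 2-fold higher and 1.85% lower, none of the 112 that passed the floor did. That count depends on the added 0.1 FPKM: as plain ratios Icam1, which binds leukocytes, was 2.10-fold higher (95% interval 1.5 to 2.97) and Vwf, a clotting factor of endothelium, 2.08-fold higher (1.84 to 2.35). In old tissue 17 were at least 2-fold higher and 28 lower of 112, against the 20.6% and 31.4% of all genes given above, and the median log2 ratios were -0.27 and -0.31. Scaled to equal fragments in genes, 28 were higher and 13 lower, against 32.2% and 19.3% of all genes. Between the naive libraries 1 was higher and 4 lower of 110, against 6.71% and 4.93% of all genes. Between the tumor-bearing ones 15 were higher and 33 lower of 115, against 19% and 29.8%. Genes named from these lists are those with the largest log2 ratios, up to 4 per list, so they show the extremes. The counts of single lists in the old comparison below stand beside the same 20.6% higher and 31.4% lower.

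The list of Wnt barrier signalling, the pathway that keeps the brain endothelial state, had 1 gene at least 2-fold higher and 7 lower of 15 measured in the old comparison. Of all genes 20.6% stood higher and 31.4% lower by that much. The median of the list was -0.92, and -0.92 to -0.36 over the scalings. Nkd1, a feedback inhibitor that Wnt signalling switches on, stood at 4.29, 4.87, 4.33 and 1.21 FPKM in young naive and tumor-bearing, then old naive and tumor-bearing tissue. Reck, which endothelial cells need to sense Wnt7 ligands, stood at 3.53, 3.86, 4.52 and 1.44 FPKM. The ligand Ndp stood at 4.57, 4.46, 4.15 and 1.20 FPKM. The ligand Wnt7a, which neural cells make, stood at 10.3, 9.05, 3.65 and 1.03 FPKM, already lower in old naive tissue. Its partner ligand Wnt7b, named here after its values were seen, went the other way at 6.72, 7.18, 11.5 and 15.7 FPKM, and the 2 Wnt7 ligands summed to 17, 16.2, 15.1 and 16.7 FPKM. Astrocyte and neuron markers, at 162 and 97.2 FPKM in the old tumor-bearing library against 585 and 686 FPKM in the old naive one, moved with this list, and their part was not tested.

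Among 12 influx transporters 1 was at least 2-fold higher and 3 lower in the old comparison. The amino acid carrier Slc7a5 was 2.13-fold higher (95% interval 2.0 to 2.28). Slc22a8, an organic anion carrier, was 5.61-fold lower (4.60 to 6.89), the thyroid hormone carrier Slco1c1 3.02-fold lower (2.70 to 3.37) and the iron exporter Slc40a1 2.65-fold lower (2.09 to 3.38). Of 5 efflux pumps 1 was higher (Abcb1b, 4.88-fold) and 1 lower (Abcc5, 3.67-fold). Abcc4 and Abcc1 were 1.36-fold and 1.07-fold higher. Of 12 junction genes 1 was higher, Ctnnd1, which steadies cadherins at the membrane (2.09-fold), and 1 lower, Cgn, a scaffold protein of tight junctions (3.58-fold). Cldn12 and F11r were 1.99-fold and 1.90-fold higher. None of 7 measured genes of vesicle traffic and caveolae was 2-fold apart; Plvap, which marks leaky vessels, was 1.55-fold lower (1.28 to 1.88), Lrp8 1.66-fold lower, and Cavin1 and Tfrc 1.42-fold and 1.35-fold higher.

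Other endothelial genes spread as widely as the 10. In the old comparison 3 of 20 further pan-endothelial genes were 2-fold or more higher and 4 lower (median -0.30). Ly6a, a surface antigen that leukocytes also carry, stood at 18.3, 25.8, 19.0 and 311 FPKM in young naive and tumor-bearing, then old naive and tumor-bearing tissue. S1pr1, a lipid receptor that astrocytes also make, stood at 57.1, 52.3, 55.6 and 13.4 FPKM. Ly6c1 and Cd93 were 3.05-fold and 3.30-fold higher. Of 12 brain endothelial enriched genes 2 were higher and 3 lower (median -0.65): Ly6e and Itih5 were 4.74-fold and 2.59-fold higher, and Spock2 and the carbonic anhydrase gene Car4 were 4.60-fold and 3.72-fold lower. The leukocyte markers were higher and the astrocyte markers lower as sums in the old tumor-bearing library, and their part was not tested.

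In the old comparison 3 of 7 VEGF ligands and co-receptors were 2-fold or more higher and 4 lower. Higher were Pgf (3.52-fold) and the co-receptor Nrp2 (2.77-fold), and lower were Vegfd (3.21-fold) and Vegfa (2.33-fold). Of 4 angiopoietin and Tie genes Angpt2 was 6.54-fold higher (95% interval 4.42 to 10.02) and the phosphatase gene Ptprb, which damps TIE2, 2.12-fold lower. Among 7 tip cell and sprouting genes 2 were higher and 1 lower: Cxcr4, a chemokine receptor that leukocytes also carry, was 35.1-fold higher (15.9 to 96.4) and Angpt2 belongs to this list too, while the guidance receptor Unc5b was 3.03-fold lower. Apln was 1.87-fold lower. Of 2 measured leukocyte adhesion genes Icam1 was 9.41-fold higher (7.03 to 12.8) and Vcam1 1.13-fold higher.

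The 12 hypoxia targets, which include Vegfa, did not move in 1 direction. Slc2a1 is itself a known target of hypoxia-inducible factors, and the part of hypoxia in its level was not tested. In the old comparison 2 of the 12 were at least 2-fold higher and 4 lower, near the 20.6% and 31.4% of all genes. The list median was 0.08, and 0.08 to 0.66 over the scalings. Car9, a carbonic anhydrase, stood at 0.976, 1.69, 0.361 and 2.28 FPKM in young naive and tumor-bearing, then old naive and tumor-bearing tissue. Ero1a, an oxidase of protein folding, stood at 11.1, 9.26, 8.69 and 28.2 FPKM. Bnip3, a mitochondrial protein, stood at 37.4, 30.0, 39.8 and 14.4 FPKM, and Ankrd37 was 3.15-fold lower. In young tissue the median of the list was -0.19 and 0 of 12 were 2-fold apart, where 5.05% of all genes were higher and 1.85% lower.

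**Figure D5:**
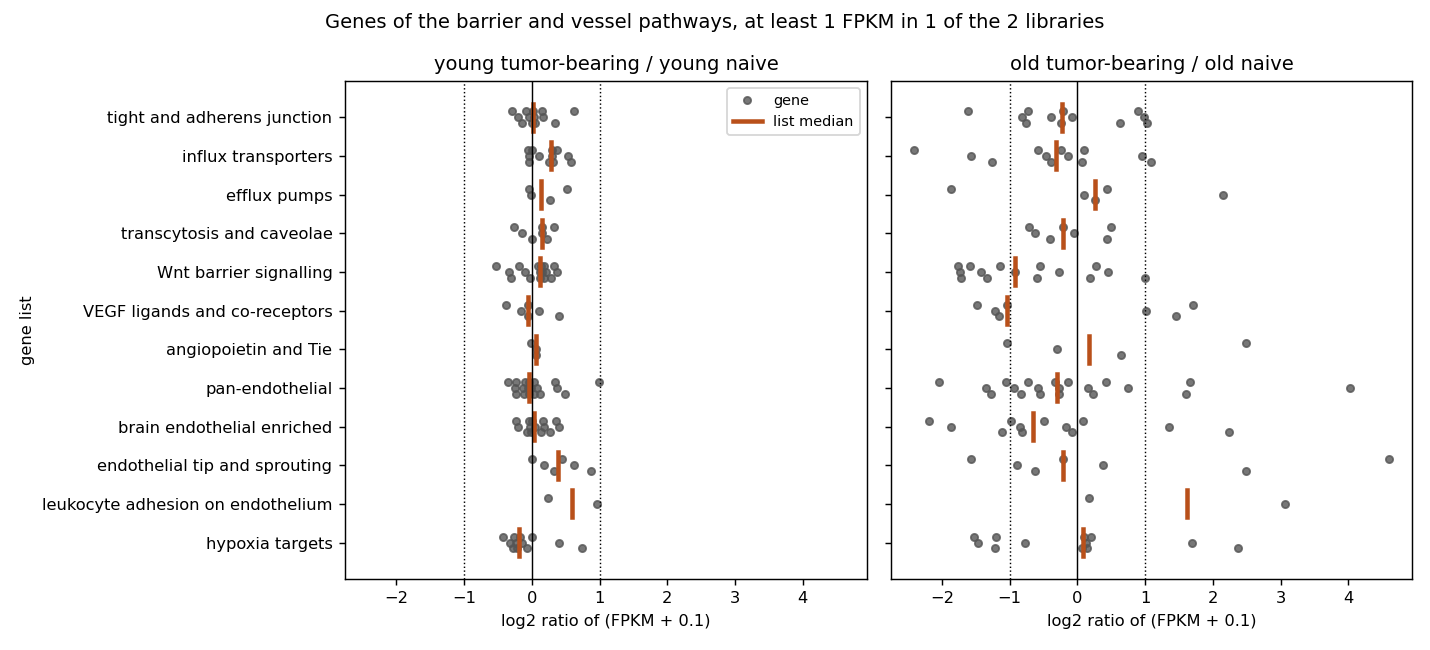
Log2 ratio of FPKM + 0.1 in tumor-bearing over naive tissue (horizontal axis) for each gene of the 12 lists with at least 1 FPKM in 1 of the 2 libraries (rows), young on the left and old on the right; vertical bars are list medians and dotted lines mark 2-fold. In young tissue every gene shown lies within 2-fold. In old tissue Wnt barrier signalling has its median at -0.92 with 7 of 15 genes at least 2-fold lower, where 31.4% of all genes were.

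The genes nearest in pattern were on none of the endothelial lists. Over the 4 libraries, among 11508 protein-coding genes with a mean of at least 2 FPKM, the profiles nearest to the mean of the 5 pan-endothelial genes were those of Serinc3, Crcp, Pex7, Tbl1xr1 and Dhx57, at distances of 0.01 to 0.03 on the log2 scale. Nearest to Cldn5 were Guk1, Ecel1, Adat2, Tagap1 and Ptges2, at 0.07 to 0.13. The 10 genes themselves ranked from 986 (Pecam1) to 9553 (Slc2a1) by distance from the pan-endothelial mean. With 4 libraries many genes share a profile, and the likeness carries no statement on function.

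Genes that overlap the 10 held few reads. The antisense genes Gm12867 and Gm12868 and the microRNA gene Mir1957a overlap Slc2a1 and held at most 35 reads in a library, against 1606 to 6500 for Slc2a1. Gm42686 overlaps Abcb1a and held at most 8 reads. Gm42684, which overlaps Abcb1a, and Gm29682, which overlaps Cdh5, held 0 reads.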

How the data were processed

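Poly-A RNA of brain tissue was sequenced as paired-end Illumina libraries, 1 per group. Per the file headers, the authors deposited FPKM per Ensembl gene. The submitters' processing notes name HISAT2 and mm10. Not given in the sources used here are the counting program, its annotation, its strand setting and any pooling of mice. The labels' protocols describe a directional and a non-directional preparation, so reads of overlapping antisense genes could not be told apart.

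GENCODE M21, on the same assembly, gave symbols to 54495 of 54532 genes, and coordinates and exon lengths. Multiplied by exon length, FPKM rose in equal steps, each 1 read. The step size gave the divisor for depth (20445811 and 19999587 for young naive and tumor-bearing, 15646445 and 23253750 for old naive and tumor-bearing) and the reads. Of 32846 genes above 0, 31928 (97.2%) came out whole in all 4 libraries within 0.03 reads or 2e-05 of the value, the 10 genes among them. What the divisor counts is not stated. A count of 0 allows up to 3 reads, which is 0.129 to 0.192 FPKM for a gene of 1 kb.

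Folds are ratios of FPKM, with exact conditional binomial 95% intervals, and levels have exact Poisson intervals. Ratios between genes, their differences and the age by tumor difference have normal-approximation counting intervals. Log2 ratios and 2-fold counts used FPKM + 0.1 and a floor of 1 FPKM in 1 of the 2 libraries; a first count had used plain ratios, and 0.1 was added after its result was seen. With 1 library per group no test was made. Alternatives were 3 scalings, 3 floors, 2 pseudocounts, plain ratios, left-out genes and other references. Named list genes were the up to 4 with the largest absolute log2 ratio in either tumor comparison. The genes and lists were chosen with earlier results of these data known. Read recovery and the binomial intervals were tested on simulated data, and the Poisson and normal-approximation intervals were not. Python 3.11.15, NumPy 2.4.6, pandas 2.3.3, SciPy 1.17.1 and Matplotlib 3.10.9 were used.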

Additional observations from a re-analysis of the deposited data

Results flagged for a closer look

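Abcb1a and Flt1 moved in opposite directions with the tumor at the 2 ages. For Abcb1a the log2 ratio of tumor-bearing over naive tissue was 0.35 in young and -1.34 in old tissue, a difference of -1.69. For Flt1 the log2 ratios were 0.27 and -1.38, a difference of -1.65. In both genes the young and old counting intervals lay on opposite sides of 1, and the directions held under all 4 scalings. The difference was not tested, since each group is 1 library. In the old tumor-bearing library the leukocyte markers summed to 295 FPKM and the pericyte markers to 36.0 FPKM, against 62.8 and 95.8 FPKM in the old naive one, and their part was not tested.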

How the results depend on the processing

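No paired analysis was possible because each group holds 1 library and the labels give no replicate numbers; no library could be left out for the same reason. Under median-of-ratios scaling, equal fragments in genes and equal FPKM totals, the genes at least 2-fold lower of the 10 in the old comparison went from 4 to 2, 0 and 1, and their median log2 ratio from -0.64 to -0.27, -0.073 and -0.21. Between the tumor-bearing libraries median-of-ratios scaling gave 1 higher, 2 lower and a median of -0.21, equal fragments 1, 2 and -0.22, and equal FPKM totals 1 higher. A pseudocount of 1 FPKM gave 2 lower there. Between the naive libraries equal FPKM totals moved the median from -0.06 to -0.28. The median age by tumor difference, -0.49, became -0.075, 0.020 and -0.12 under the 3 scalings. A floor of 5 FPKM moved the old median to -1.05 and that between tumor-bearing libraries from -0.59 to -0.92. The latter became -0.27 without Abcb1a and -0.92 without Pecam1. With Cdh5 alone as the reference, the median barrier ratio became -0.56 in the old comparison and -0.66 between tumor-bearing libraries, and without Flt1 and Kdr it became -0.037 between naive libraries.

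For the 126 list genes in the old comparison, 28 lower became 16, 13 and 16 under the 3 scalings and 17 higher became 28 under equal fragments. A floor of 5 FPKM gave 11 higher and 15 lower, and a pseudocount of 1 FPKM 17 lower. Between tumor-bearing libraries 33 lower became 14 (median-of-ratios), 16 (equal fragments), 17 (floor of 5 FPKM) and 16 (pseudocount of 1 FPKM). In young tissue 0 higher became 2 under equal fragments, equal FPKM totals, a pseudocount of 0.01 FPKM and plain ratios, and 1 with a floor of 0.1 FPKM or none. Between naive libraries 1 higher became 2 with a floor of 0.1 FPKM or none and 0 with a floor of 5 FPKM or a pseudocount of 1 FPKM, and 4 lower became 1 and 2 under the last 2. Plain ratios and the young naive reference were added after the values were seen; plain ratios left every count of the 10 genes as it was. Among protein-coding genes alone the young background was 2.31% higher and 0.350% lower. The causes were not tested. In all, 178 summary values were scored as kept and 48 as moved. Small changes of a count, and shifts of a median of the 10 genes within counting error, were scored as kept. A kept value could thus still differ. All 10 genes passed the floor of 1 FPKM in every comparison, so the lower floors could not move their counts or medians. A reversal was scored only for medians of at least 2-fold, and the medians of the 10 genes were smaller. A change of sign in such smaller medians, as in that of the age by tumor difference, was therefore not scored as a reversal. The 10 genes had 168 reads or more in each library; the spread between mice could not be judged.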
